A study of Mus musculus with 9 samples.

Results

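Aminoacyl-tRNA synthetases join each amino acid to its matching tRNA, the step that feeds the ribosome. The 10 genes described here, Aars, Cars, Gars, Iars, Lars, Nars, Sars, Tars, Wars and Yars, encode synthetases of the cytosol and were taken by symbol from a table of 6462 genes, where each had 1 row. The cells were BV2, a microglial line immortalized from mouse, sampled at 3 points: untreated (0 h), and after 1 h or 12 h with lipopolysaccharide (LPS, 200 ng/ml), the bacterial product that activates Toll-like receptor 4. Each group held 3 libraries of poly(A)-selected RNA from bulk cells. No genotype, knockdown or inhibitor is named for any group, and no untreated cells of 1 h or 12 h are among the samples, so LPS and time in culture cannot be told apart. Separate cultures are not named for the 3 libraries within each group; p-values here speak only of library-to-library spread, which may be technical.

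Synthetases fall into 2 structural classes with unrelated catalytic folds. Class I, with the enzymes for cysteine, isoleucine, leucine, tryptophan and tyrosine here, usually charges the 2′ hydroxyl of the tRNA end, and class II, with those for alanine, asparagine, glycine, serine and threonine, usually the 3′ hydroxyl. Some of the cytosolic enzymes, among them the isoleucyl and leucyl enzymes, sit in a large multi-synthetase complex, while others are free. Most mitochondrial synthetases are products of separate nuclear genes. Many cytosolic synthetase genes are known targets of ATF4, a transcription factor of the integrated stress response, which is the pathway that lowers general translation when amino acids run short or the endoplasmic reticulum is stressed.

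Values are FPKM, fragments scaled to transcript length and library size, so levels can be compared between genes. All 6462 genes of the table carry the authors' flag for a difference among these samples, and 5643 with a mean of at least 1 FPKM were tested; all 10 synthetases passed this filter. The summed FPKM of the table rose from 195872 to 198075 in untreated libraries to 203515 to 205413 at 1 h and 223720 to 228207 at 12 h. Relative depths of the other 8 libraries were 1.08 to 1.16 times that of untreated library 1, estimated from the steps between low values. Only ratios near 1 were kept for this estimate, so a larger difference in depth could not have shown. The number of fragments is unknown. Of 15 microglial markers, 10 were in the table, and Cd68 (390.6 ± 14.7 FPKM, SD, n = 3), Tyrobp (559.8 ± 30.5) and Csf1r (66.1 ± 2.76) were well expressed in untreated cells, while P2ry12 (1.24 ± 0.336) and C1qa (0.628 ± 0.156), markers of resting microglia and of complement production, were low. At 12 h 2 of the 8 tested microglial markers were called higher and 5 lower, where 41.1% of all tested genes were called higher and 40.6% lower. Of 20 markers of neurons, astrocytes, oligodendrocytes and endothelium, only Olig2 and Flt1 were in the table; Olig2 was at or near 0 in every library and Flt1 stood at 17.2 ± 0.64 FPKM without LPS and 21.4 ± 0.484 FPKM after 12 h. Because all rows carry the flag for a difference, a marker missing from the table, microglial or other, may be expressed without a change. Absence here is therefore no measure of which cells were present. The part of these markers in the results was not tested.

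Promoter sequences from RefSeq (mouse build GRCm38.p6), 300 bases long and covering 250 bases before to 50 after a gene's start, were present for 6 of the 10 genes: Aars, Gars, Iars, Sars, Tars and Yars. They are shown because these genes all rose at 12 h. Whether a match goes with the rise was not tested. Each was searched on both strands for TGATGNAA, the composite site of ATF4 with a C/EBP partner, and for its stricter form TGATGCAA, which the first pattern contains. TGATGNAA occurred in 5 of the 6 promoters, against 3.97% of 32851 promoters, and TGATGCAA in 4 of the 6, against 0.895%. The stretches around the match follow, 5′ to 3′ on the strand of the gene, with the match in capitals; it reads in reverse (as TTGCATCA or TTTCATCA) in all but Yars.
Aars, chr8:111033704-111033763, plus strand: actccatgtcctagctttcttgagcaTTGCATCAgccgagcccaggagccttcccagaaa
Gars, chr6:55037941-55038000, plus strand: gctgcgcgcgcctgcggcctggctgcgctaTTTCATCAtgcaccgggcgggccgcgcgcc
Tars, chr15:11399659-11399718, minus strand: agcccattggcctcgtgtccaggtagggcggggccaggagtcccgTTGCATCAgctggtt
Iars, chr13:49682126-49682155, plus strand: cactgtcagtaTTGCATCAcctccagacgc
Yars, chr4:129189895-129189924, plus strand: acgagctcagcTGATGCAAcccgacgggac

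In Aars, Gars and Tars the match lay upstream of the start, its first base at positions -112, -30 and -15. In Iars and Yars it began at positions 8 and 4 of the transcribed sequence. Aars held a second TGATGNAA match, at positions 10 to 17. No match was found in the window of Sars, whose log2 difference at 12 h was 0.94. The genes with the stricter form were Aars (1.07), Tars (0.57), Yars (0.37) and Iars (0.28). By the same search, TGATGNAA was in 0 of 7 promoters of other cytosolic synthetases, 0 of 15 of mitochondrial synthetases, 5 of 23 of integrated stress response genes (Trib3, Chac1, Atf3, Nupr1 and Vldlr), 3 of 14 for amino acid synthesis (Asns, Pycr1 and Got1) and 2 of 8 for amino acid transporters (Slc7a11 and Slc1a4). It was also in 2 of 5 promoters of neuron markers (Syt1 and Tubb3). The E-box CACGTG, bound by MYC and related factors, was in 3 of the 6 promoters (Aars, Iars and Tars), against 7.15% of all. The interferon response element core AAANNGAAA was in 0 of the 6, against 10.6% of all. Wars had no promoter sequence and was not searched. A match describes letters in this window and does not show that a factor binds there.

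After 12 h with LPS all 10 synthetase genes rose above untreated cells, by 1.22- to 2.13-fold in mean FPKM, with the gene for the alanyl enzyme rising most and that for the isoleucyl enzyme least. In each of the 10, all 3 libraries at 12 h lay above all 3 untreated libraries. The share of all tested genes without overlap was not counted. The background is high in this table: 41.1% of the 5643 tested genes were called higher and 40.6% lower at 12 h (limma on log2(FPKM + 1), Benjamini-Hochberg adjusted p under 0.05). The median log2 difference of the 10 genes was 0.65, against 0.03 over all tested genes and 0.08 over the 2216 tested genes with a mean FPKM in the range of the 10 (15.7 to 149.6). After 1 h, 5 of the 10 were called higher and none lower, against 24.1% and 34.9% of all tested genes. Under quantile normalization 2 were called higher and 2 lower, where 1264 of the 5643 tested genes were called higher and 2012 lower. These are levels in bulk RNA, where a change in the cells present and a change in RNA per cell cannot be told apart.

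**Figure D1:**
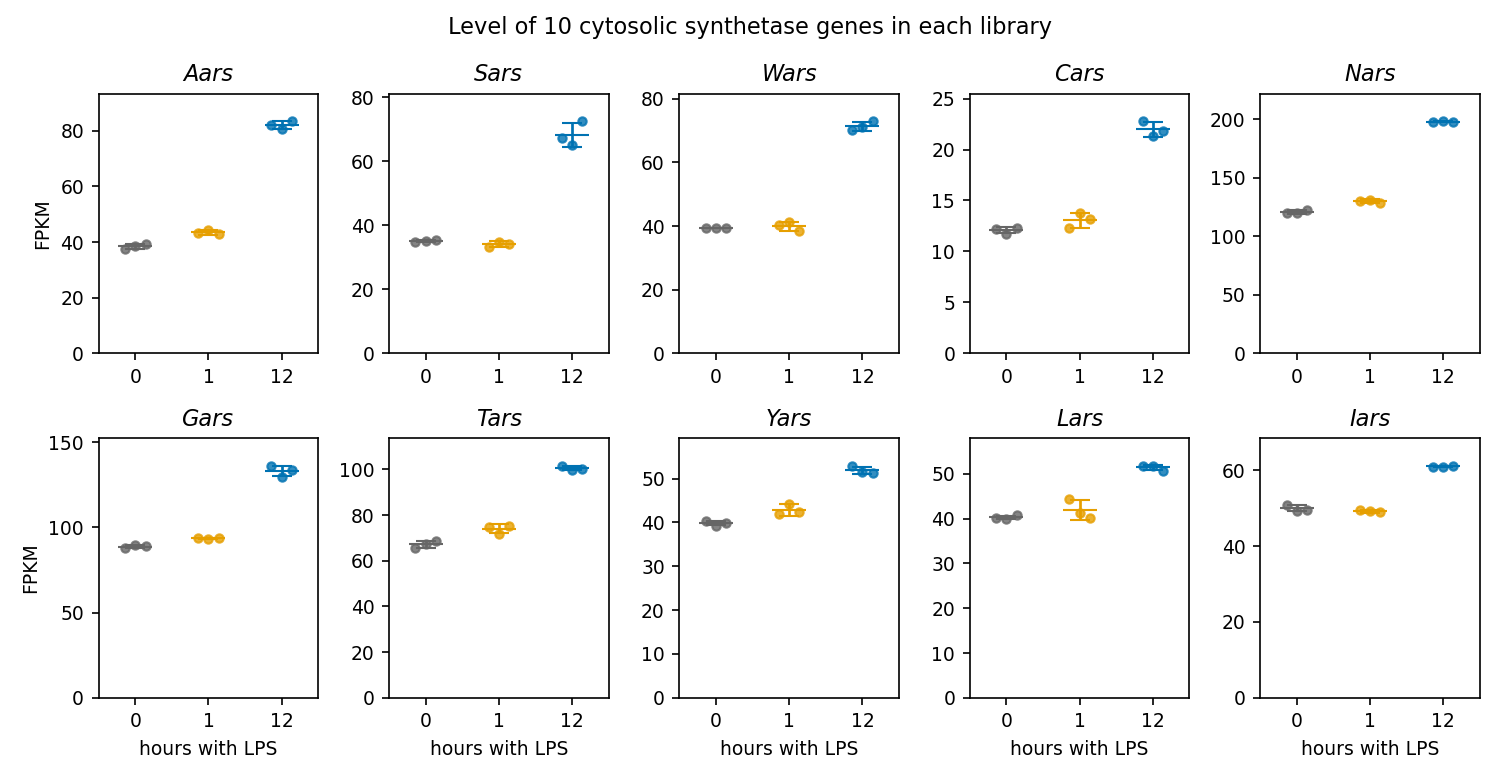
FPKM (y axis, from 0, scaled per gene) of the 10 cytosolic synthetase genes against hours with LPS (x axis); points are libraries, horizontal marks the mean and bars the SD of 3 libraries. In every panel the 3 libraries at 12 h lie above the 3 untreated ones, while the 1 h libraries stay near the untreated level.

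Among the class II genes, Aars, which encodes the alanyl enzyme, stood at 37.5, 38.4 and 39.4 FPKM in the untreated libraries, at 43.4, 44.2 and 42.7 at 1 h, and at 82.0, 80.5 and 83.4 at 12 h. The 3 groups did not overlap, and the mean level rose 2.13-fold by 12 h, a log2 difference of 1.07 ± 0.03 (SE, limma adjusted p = 3.77e-13). At 1 h the difference was 0.17 ± 0.03 (limma adjusted p = 0.000285). Aars had the largest difference of the 10 genes at both times, and 230 of the 5643 tested genes had a larger increase at 12 h. Ddx19b overlaps Aars in the annotation, and whether reads were counted by strand is not given.

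Sars, which encodes the seryl enzyme and also serves the charging of selenocysteine tRNA, stood at 34.8, 35.0 and 35.5 FPKM in untreated libraries and at 33.0, 34.8 and 34.1 at 1 h. At 12 h it stood at 67.3, 65.0 and 72.4. Its untreated and 1 h libraries overlapped, and its 12 h libraries were the most spread of any of the 10 genes at that time, with a coefficient of variation of 5.56%. The log2 difference was -0.04 at 1 h (95% interval -0.13 to 0.04, limma adjusted p = 0.334) and 0.94 ± 0.04 at 12 h (limma adjusted p = 1.91e-11).

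Nars, the gene for the asparaginyl enzyme, had the highest level of the 10 in all 3 groups. It stood at 119.7, 120.0 and 122 FPKM untreated, 130.4, 131 and 128 at 1 h, and 197.8, 198 and 197.8 at 12 h. Its groups did not overlap, and its gain of 77.2 FPKM at 12 h was the largest in absolute terms, although 4 of the 10 genes rose more on the log2 scale, where Nars stood at 0.71 ± 0.02 (limma adjusted p = 2.78e-12). At 1 h its log2 difference was 0.11 (limma adjusted p = 0.00203), a call lost under quantile normalization (0.01, adjusted p = 0.659).

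Gars, whose product charges glycine tRNA in both the cytosol and mitochondria, stood at 87.6, 89.4 and 89.0 FPKM untreated, 93.9, 93.1 and 93.6 at 1 h and 136, 129.8 and 134 at 12 h. The gain at 12 h was 44.5 FPKM, a log2 difference of 0.58 ± 0.03 (limma adjusted p = 6.58e-11), or 0.39 under quantile normalization. Its 1 h call (0.08, limma adjusted p = 0.0248) is fragile: it ended under quantile normalization, where the difference turned to -0.02, with a variance model without trend (adjusted p = 0.0637), and without untreated library 1 (0.073), 1 h library 1 (0.0615) or 1 h library 3 (0.0504).

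Tars, the gene for the threonyl enzyme, stood at 65.7, 67.4 and 68.7 FPKM untreated, 74.9, 71.7 and 75.4 at 1 h and 101.6, 99.9 and 100.3 at 12 h. It rose in 2 steps, by 0.14 at 1 h (limma adjusted p = 0.00125; 0.05 and adjusted p = 0.188 under quantile normalization) and by a further 0.44 between 1 h and 12 h (adjusted p = 5.22e-09). Its 12 h difference from untreated cells was 0.57 ± 0.03 (limma adjusted p = 2.22e-10).

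Of the class I genes, Wars and Cars had the largest differences at 12 h, with Wars first on the log2(FPKM + 1) scale and Cars first with a pseudocount of 0.1 or under quantile normalization. Wars encodes the tryptophanyl enzyme, which in many cell types is also induced by interferon. Its levels were 39.4, 39.4 and 39.3 FPKM untreated, 40.4, 41.1 and 38.4 at 1 h, and 70.1, 71.1 and 72.9 at 12 h. The untreated and 1 h libraries overlapped (log2 difference 0.02, 95% interval -0.05 to 0.09, limma adjusted p = 0.571). Between 1 h and 12 h the log2 difference was 0.82 ± 0.03 (limma adjusted p = 1.37e-11). Wdr25 overlaps Wars in the annotation. Of 10 interferon-stimulated genes tested beside it, 4 were called higher and 1 lower at 1 h, against 24.1% and 34.9% of all tested genes. The call lower, in Ifit2, was lost in 8 of 17 alternatives, and 1 of the calls higher, in Ifit1, in 6 of 17. At 12 h 9 rose (median log2 difference 2.22), against 41.1%. The 4 with the largest differences on the log2(FPKM + 1) scale were Isg15 (3.57), a ubiquitin-like modifier, Irf7 (2.85), a transcription factor of the interferon response, Rsad2 (2.82), for viperin, and Oasl2 (2.64). This order depends on the pseudocount for low genes: Gbp2, a guanylate-binding protein, went from 0.203 to 5.29 FPKM, a difference of 2.37 on this scale and up to 4.16 in the alternatives. Gbp2 (0.331 FPKM at 1 h) and Ifit3 (0.441 untreated, 0.312 at 1 h, 3.62 at 12 h) were both called higher at 12 h. They passed the filter of a mean of 1 FPKM only through their 12 h libraries, which favours such a call.

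Cars, the gene for the cysteinyl enzyme, had the lowest level of the 10 in all groups: 12.2, 11.7 and 12.3 FPKM untreated, 12.3, 13.7 and 13.2 at 1 h, and 22.8, 21.3 and 21.8 at 12 h. Its gain of 9.89 FPKM was the smallest in absolute terms, yet only Aars, Sars and Wars had a larger log2 difference than its 0.81 ± 0.04 (limma adjusted p = 4.42e-10). At 1 h all 3 libraries lay above the untreated ones but the difference of 0.10 did not pass (limma adjusted p = 0.0592); it passed under quantile normalization (0.0465) and without 1 h library 1 (0.0163).

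Yars, Lars and Iars, the genes for the tyrosyl, leucyl and isoleucyl enzymes, had the 3 smallest rises. Yars stood at 39.8 ± 0.487 FPKM untreated, 42.8 ± 1.29 at 1 h and 51.9 ± 0.902 at 12 h (n = 3), with a 12 h log2 difference of 0.37 (limma adjusted p = 5.29e-08). Lars stood at 40.3 ± 0.397, 41.9 ± 2.19 and 51.4 ± 0.59 FPKM (12 h: 0.34, adjusted p = 5.04e-07), and Iars at 49.96 ± 0.818, 49.2 ± 0.39 and 61.0 ± 0.137 FPKM (12 h: 0.28, adjusted p = 2.42e-07). Under quantile normalization the Iars difference was smaller, at 0.14, but still passed (limma adjusted p = 0.000644). At 1 h Yars passed (0.10, limma adjusted p = 0.0122), but not under quantile normalization (adjusted p = 0.223) or without 1 h library 2 (adjusted p = 0.0675). Lars (0.05, 95% interval -0.02 to 0.13) and Iars (-0.02, 95% interval -0.08 to 0.04) did not pass at 1 h, with overlapping libraries. At 12 h the 3 Iars libraries stood at 61.0, 60.9 and 61.2 FPKM, all above the highest untreated one (50.9). The leucyl enzyme is also known as a leucine sensor in mTORC1 signaling.

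**Figure D2:**
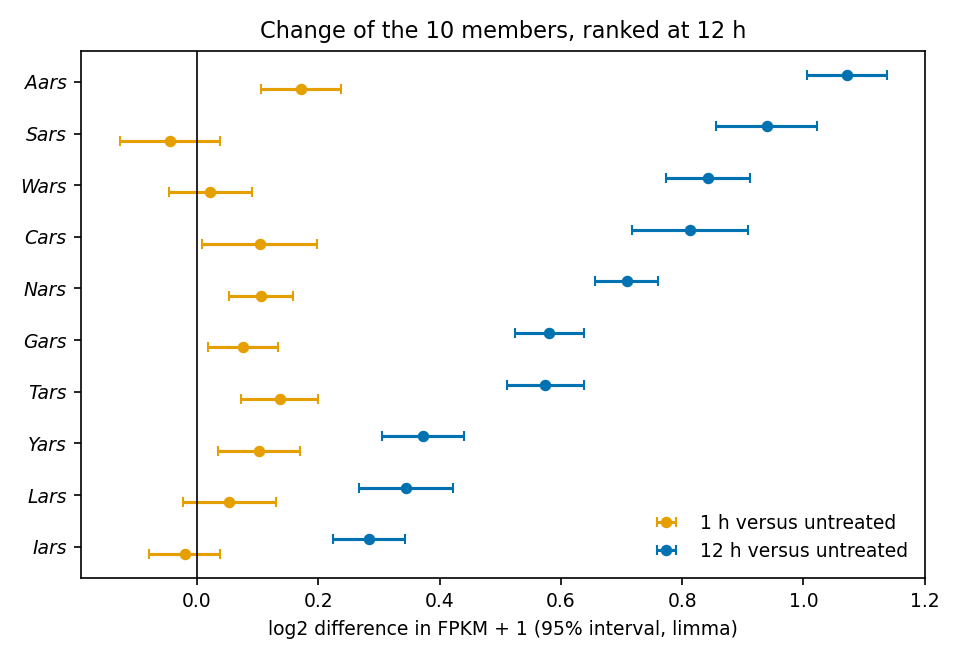
Log2 difference in FPKM + 1 (x axis) of each of the 10 genes at 1 h (orange) and 12 h (blue) against untreated cells, with 95% intervals from limma, ordered from the largest to the smallest 12 h value. The 12 h values run from 1.07 in Aars to 0.28 in Iars, and the 1 h values from 0.17 to -0.04.

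At 1 h the 5 genes called higher were Aars, Tars, Nars, Yars and Gars, against a background of 24.1% of tested genes called higher and 34.9% lower. In 6 of the 10 all 3 libraries at 1 h lay above the untreated ones, and in 4 (Iars, Lars, Sars and Wars) the groups overlapped. The median log2 difference was 0.09, against -0.03 over all tested genes. Under quantile normalization 2 of the 10 were higher (Aars and Cars), 2 were lower (Iars, -0.10, and Sars, -0.10), and the median was -0.000373. With that scaling 1264 of all 5643 tested genes were called higher and 2012 lower. Aars was the gene whose 1 h call held in all 18 alternatives tried. Between 1 h and 12 h all 10 rose, by 0.27 (Yars) to 0.98 (Sars), without overlap of libraries, against 41.9% of tested genes called higher and 43.6% lower. That comparison shares its 12 h libraries with the one against untreated cells. For neither comparison was the share of all tested genes without overlap counted.

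In order of the 12 h change, the genes were Aars, Sars, Wars, Cars, Nars, Gars, Tars, Yars, Lars and Iars. For each of the 9 pairs of neighbours the log2 ratio of the pair was compared between the 12 h and untreated libraries, which with 3 against 3 libraries cannot give an exact two-sided permutation p below 0.1 (0.15 after adjustment over the 9 pairs here), so no pair could pass. The ratios overlapped between the groups in 3 pairs: Wars and Cars (difference of changes 0.03 ± 0.04, SE), Gars and Tars (0.01 ± 0.02) and Yars and Lars (0.0284 ± 0.0146). In the other 6 pairs the ratios did not overlap, with differences from 0.06 ± 0.02 (Lars and Iars) to 0.20 ± 0.02 (Tars and Yars), and exact permutation p = 0.1 in each. The order came from these same libraries, so the sign of each difference was fixed in advance. The overlap of the pairs is a description and does not show which places in the order are distinct. The 5 class II genes had log2 differences from 0.57 to 1.07 with a median of 0.71, and the 5 class I genes 0.28 to 0.84 with a median of 0.37. These class values cover the 10 genes only. The 7 other tested cytosolic synthetases ran from -0.01 to 0.72 and were not split by class, so no difference between the classes is drawn from this. Both genes of the multi-synthetase complex, Iars and Lars, were last.

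The order of levels differed from the order of change. In untreated cells it was Nars (120.7 FPKM), Gars (88.7), Tars (67.2), Iars (49.96), then Lars, Yars, Wars and Aars between 40.3 and 38.5, Sars (35.1) and Cars (12.1). Neighbours from Lars to Aars overlapped in their libraries, and the other neighbours did not. At 12 h Nars, Gars and Tars kept the first 3 places, at 198, 133 and 100.6 FPKM. Aars (81.9), Wars (71.4) and Sars (68.3) now stood above Iars (61.0), with Wars and Sars overlapping, followed by Yars (51.9) and Lars (51.4), which also overlapped, and Cars (22.0). The highest and the lowest of the 10 were 9.997-fold apart in untreated cells and 9.01-fold apart at 12 h. Summed over the 10 genes, the level was 532 ± 4.64 FPKM untreated, 562 ± 4.23 at 1 h and 839.6 ± 8.32 at 12 h (n = 3), or 0.267% to 0.272% of the table's sum in untreated libraries and 0.370% to 0.374% at 12 h, so the share rose as well as the sum.

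The remaining cytosolic synthetases gave a mixed picture. Of 10 such genes 7 were tested, and at 12 h 4 rose and none fell, against 41.1% of all tested genes called higher and 40.6% lower. The others were not in the table, whose rows all carry the authors' flag for a difference, so genes without a change may be missing. Their median log2 difference was 0.13. Rars, for the arginyl enzyme and also a subunit of the multi-synthetase complex, went from 129 ± 3.04 to 212.5 ± 6.96 FPKM (0.72 ± 0.03, limma adjusted p = 5.61e-11), beside 0.71 in Nars. Hars (0.31), for the histidyl enzyme, and 2 smaller ones, Farsb (0.19), the beta subunit for phenylalanine, and Eprs (0.13), the joint enzyme for glutamate and proline, also rose. Farsa (0.03, 95% interval -0.04 to 0.10), Kars (0.00, -0.06 to 0.06) and Qars (-0.01, -0.07 to 0.05), for phenylalanine, lysine and glutamine, did not pass. These small values depend on scaling: under quantile normalization 2 of the 7 rose (Rars and Hars), while Farsa (-0.10), Kars (-0.16) and Qars (-0.16) were called lower. With that scaling 2129 of all 5643 tested genes were called higher and 2453 lower. Across all 17 tested cytosolic synthetases, 14 rose at 12 h, against the same 41.1%. The 6 that belong to the complex ran from -0.01 to 0.72 with a median of 0.21, and the 11 others from 0.03 to 1.07 with a median of 0.58. At 1 h Qars was called lower (-0.07, limma adjusted p = 0.0453), a call lost in 10 of 18 alternatives, and the other 6 did not pass. Of the scaffold genes of the complex, Eef1e1 rose by 0.59 at 12 h and by 0.32 at 1 h, and Aimp2 by 0.14 at 12 h (limma adjusted p = 0.0156), a call lost under quantile normalization and without untreated library 2 or 3 or 12 h library 3.

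Most of the tested mitochondrial synthetases fell at 12 h. Of 17 listed genes 6 were tested, and 4 of them were called lower, against 40.6% of all tested genes, and 1 higher. Most of the others were not in the table, whose rows all carry the authors' flag for a difference, so genes without a change may be missing. Tarsl2, on this list although its product is a cytosolic threonyl enzyme, was not tested because its mean over all libraries was below 1 FPKM. It stood at 1.10 ± 0.0687 FPKM untreated and 0.487 ± 0.142 at 12 h. The median log2 difference of the 6 tested genes was -0.36. Vars2, for the mitochondrial valyl enzyme, fell by 0.71, from 7.66 ± 0.289 to 4.29 ± 0.199 FPKM (limma adjusted p = 4.67e-09), Iars2 by 0.41, Lars2 by 0.40 and Cars2 by 0.31. Yars2 rose by 0.15 (limma adjusted p = 0.00253; 0.05 and not passing under quantile normalization, adjusted p = 0.217), and Mars2 had a difference of -0.01 (adjusted p = 0.851). In 4 cases both the cytosolic and the mitochondrial gene for 1 amino acid were tested, pairs chosen after their values were seen. The log2 ratio of cytosolic to mitochondrial gene was higher at 12 h than in untreated cells by 1.13 ± 0.07 (SE) for Cars and Cars2, 0.74 ± 0.05 for Lars and Lars2, 0.69 ± 0.02 for Iars and Iars2, and 0.22 ± 0.03 for Yars and Yars2. The libraries did not overlap in any of the 4 (exact two-sided permutation p = 0.1 each, the smallest that 3 against 3 libraries allow). For Cars, Lars and Iars the cytosolic gene rose and the mitochondrial gene fell, so a higher ratio followed from the values already given. The share of other gene pairs without overlap was not counted, so these ratios are a description only.

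**Figure D3:**
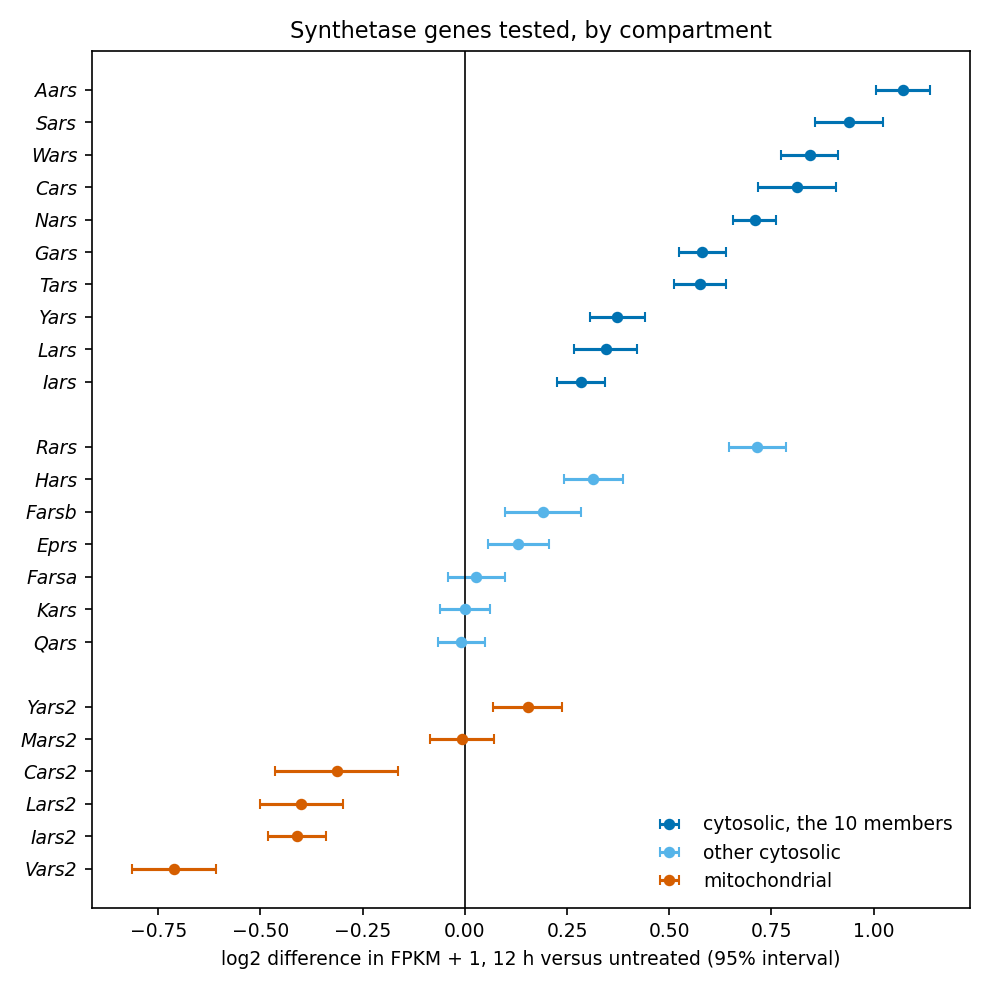
Log2 difference in FPKM + 1 between 12 h and untreated cells (x axis, 95% interval from limma) for the 23 synthetase genes shown: the 10 described here (dark blue), other cytosolic genes (light blue) and mitochondrial genes (orange). The 10 lie between 0.28 and 1.07, the other cytosolic genes between -0.01 and 0.72, and 4 of the 6 mitochondrial genes were called lower.

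Genes that supply amino acids or belong to the integrated stress response were followed as lists, against the same background of 41.1% called higher. Atf4, which encodes the transcription factor of that response, went from 198 ± 2.76 FPKM untreated to 256 ± 9.33 at 1 h and 476.5 ± 4.27 at 12 h (12 h log2 difference 1.26, limma adjusted p = 2.99e-14). Of 21 tested genes of the response, 18 rose and 2 fell at 12 h, and the median log2 difference was 0.72. The 4 largest on the log2(FPKM + 1) scale were Trib3 (2.62), a pseudokinase, Chac1 (2.07), which degrades glutathione, Ddit3 (1.78), for the stress factor CHOP, and Nupr1 (1.38), a stress-induced nuclear protein. This scale understates Chac1 and Ddit3, which are low in untreated cells: Chac1 went from 0.712 to 6.18 FPKM and reached 2.96 in the alternatives, above the highest value of Trib3 (2.77), and Ddit3 went from 1.18 to 6.49 FPKM. The untreated level of Chac1 lay below the 1 FPKM of the filter, which its 12 h libraries helped it to pass. The 2 that fell, where 40.6% of all tested genes were called lower, were Ddit4 (-0.65) and Eif2ak4 (-0.49), the latter the kinase GCN2, which senses uncharged tRNA. Under quantile normalization 16 of the 21 rose and 2 fell, where 2129 of all 5643 tested genes were called higher and 2453 lower. At 1 h 9 were called higher and 4 lower (median -0.02), against 24.1% and 34.9%. The 4 were Ddit4 (-2.08), Stc2 (-0.77), Trib3 (-0.27) and Eif4ebp1 (-0.18).

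Of 14 tested genes for amino acid and one-carbon synthesis, 13 rose at 12 h and none fell, and the median log2 difference was 0.30. Mthfd2 (1.21), a mitochondrial folate enzyme, Asns (1.20), which makes the asparagine that the Nars enzyme charges, Psph (0.95), the last step of serine synthesis, and Gpt2 (0.73), which makes alanine from pyruvate, rose most. Under quantile normalization 9 of the 14 rose and 1 fell, where 2129 of all 5643 tested genes were called higher and 2453 lower. Of 10 tested amino acid transporters, 8 rose and 1 fell (Slc38a2, -0.16), with a median of 0.66. The 4 largest rises were in the cystine carrier Slc7a11 (3.24), its partner chain Slc3a2 (1.03), the glycine carrier Slc6a9 (0.96) and Slc7a5 (0.82), which carries leucine and other large amino acids. Under quantile normalization 6 of the 10 rose and 3 fell, against the same counts over all tested genes with that scaling.

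**Figure D4:**
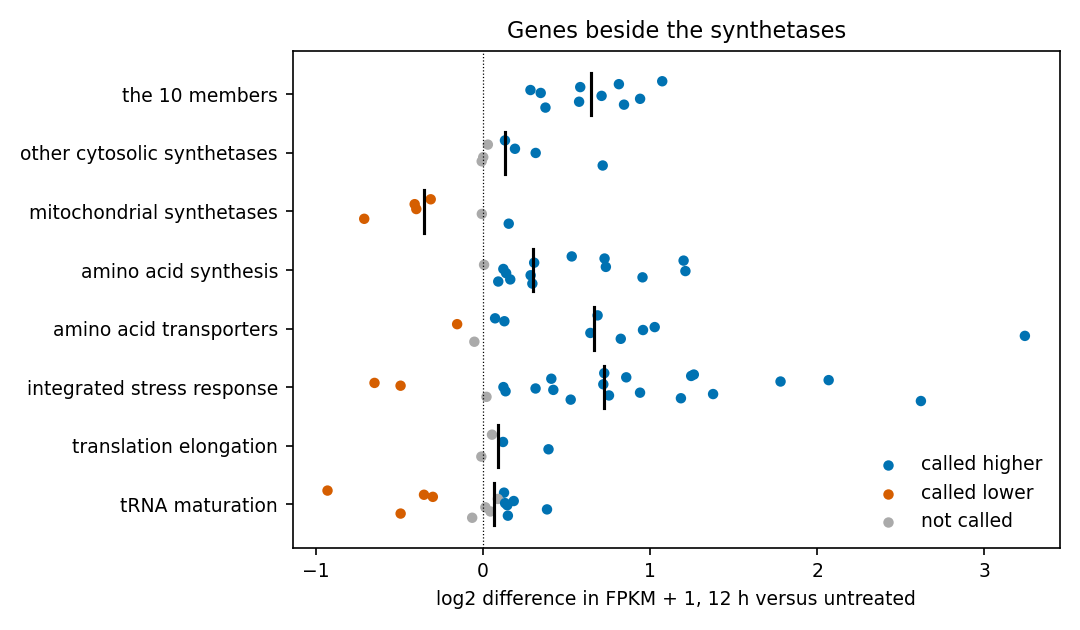
Log2 difference in FPKM + 1 between 12 h and untreated cells (x axis) for each tested gene (points) of 8 lists (rows); blue points were called higher, orange lower and grey neither, and black bars mark list medians. The median is 0.65 for the 10 synthetases, 0.72 for the stress response list, 0.66 for the transporters and -0.36 for the mitochondrial synthetases.

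To name genes with a similar course, the log2 values of the 10 synthetases were standardized over the 9 libraries and averaged, and each of 4416 other genes with a mean of at least 5 FPKM was correlated with that average. The 8 most alike were Actg1, a cytoplasmic actin (Pearson r = 0.9996), Fth1, the ferritin heavy chain (0.9988), Lcn2, a siderophore-binding protein (0.9983), Hmga2, an architectural chromatin protein (0.9979), Slc3a2 (0.9979), Hyou1, a chaperone of the endoplasmic reticulum (0.9979), Manf, a secreted protein of the same compartment (0.9977), and Hp, haptoglobin (0.9975). These r describe 9 libraries that form 3 groups, and 495 of the 4416 genes had r over 0.95, so a high value is common here. The size of the change differed widely among the 8, from 0.64 in Actg1 (325 ± 3.0 to 508 ± 9.81 FPKM) to 7.39 in Lcn2 (0.366 ± 0.218 to 227.8 ± 23.3 FPKM). Lcn2 reached the mean of 5 FPKM only through its 12 h libraries. Each of the 10 synthetases correlated with the average of which it was part at 0.976 (Lars) to 0.9991 (Nars).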

How the data were processed

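The authors deposited 1 table of FPKM per gene for 9 libraries (3 untreated, 3 with LPS for 1 h, 3 for 12 h), made per the labels' protocols from TRIzol RNA with a stranded mRNA kit. Tools listed in the submitters' processing notes, with neither version nor role, are HISAT2, HTSeq, Cufflinks, DESeq and Trimmomatic; the notes list GRCh38, a human build, although gene names and identifiers are mouse; the build behind the values is therefore unclear. A p-value and q-value per gene, deposited with no test stated, were not used for calls; the highest q-value is 0.0999 and all rows carry the flag, so rows were selected on these samples. Other genes were not analysed here. Whether counting used strand is not given in the sources used here; Ddx19b and Wdr25 overlap Aars and Wars in RefSeq.

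Values were analysed as log2(FPKM + 1), which understates the fold changes of low genes. The 5643 genes whose mean reached 1 FPKM (819 were below) entered a limma 3.58.1 model (R 4.3.3) of 1 mean per group over all 9 libraries and eBayes with trend, and p-values were adjusted by Benjamini-Hochberg over all tested genes. The fit was tested on simulated data. Depth was compared from ratios of values under 0.12 FPKM, of which only those near 1 were kept (10 to 57 genes per library). Genes and lists were chosen with earlier results of these data known. Named genes are the 10 synthetases, the other cytosolic synthetases, Atf4, the 4 called genes with the largest 12 h change in each list, and the 8 most alike; other genes were named after their values were seen. All 10 matched RefSeq by gene identifier, 6 of them with a promoter. Library numbers were not taken to pair the libraries, and the labels name no pairing. A further listed gene is not reported here and does not enter the counts or medians of its list.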

Additional observations from a re-analysis of the deposited data

How the results depend on the processing

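Of the 18 alternatives, 9 dropped 1 library each; the others changed the pseudocount (0.1 or 0.5), the filter (none, or a mean of 5 FPKM), the scaling (quantile or median of ratios), the variance trend, the libraries fitted (the 6 compared) or added a replicate block. In both 12 h comparisons every one of the 10 genes kept its direction and call under all 18 (360 of 360 values); the order at 12 h was the same in 14 and moved by at most 1 place in 4. Quantile normalization lowered the median of the 10 genes to 0.44 at 12 h against untreated cells (from 0.65) and to 0.44 against 1 h (from 0.55); the cause was not tested. At 1 h it gave 2 genes higher and 2 lower, against 1264 and 2012 of all 5643 tested genes. It also gave a median of -0.000373 and reversed the direction of Gars (-0.0167), Lars (-0.0138) and Wars (-0.0366). Of the 180 values at 1 h, 165 kept direction and call. Leaving out 1 library gave 4 to 5 genes higher at 1 h and 10 in both 12 h comparisons. With the replicate block the counts were unchanged at 5, 10 and 10; same-numbered libraries correlated in their residuals from -0.0666 to 0.128, against -0.146 to 0.138 for other pairs, so the numbers were not taken as pairs. The number of fragments is unknown, so no counting error is given; the 3 libraries per group limit single-gene permutation tests to p = 0.1.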

Other observations

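Genes that act on tRNA before or after charging were called in both directions at 12 h. Of 30 listed genes for tRNA processing, modification and export, 14 were tested, and at 12 h 6 rose and 4 fell, against 41.1% of all tested genes called higher and 40.6% lower. The median log2 difference was 0.07. The 4 largest changes were falls of Ang (-0.93), which encodes angiogenin, a ribonuclease that cleaves tRNA, and of Tsen34 (-0.49), a subunit of the tRNA splicing endonuclease, a rise of Trmt61a (0.38), which methylates adenosine in tRNA, and a fall of Dtd1 (-0.35), which removes D-amino acids from tRNA. Under quantile normalization 4 rose and 5 fell, where 2129 of all 5643 tested genes were called higher and 2453 lower. At 1 h 6 of the 14 rose and 3 fell, against 24.1% and 34.9%. The 14 include Ythdf2, a reader of modified mRNA, which rose at 1 h (0.37) and was not called at 12 h (-0.07).

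Of 9 listed elongation and termination factors, 4 were tested. At 12 h Etf1 (0.39), the release factor that reads stop codons, and Eif5a (0.12) rose, against 41.1% of all tested genes called higher. Eif5a did not pass under quantile normalization (-0.04, adjusted p = 0.3), and Eef1d (0.05) and Gspt1 (-0.01) did not pass by limma. At 1 h Etf1 (0.36), Gspt1 (0.14), which works with it, and Eif5a (0.11) were called higher, against 24.1% of all tested genes. Under quantile normalization Gspt1 (0.06, adjusted p = 0.0705) and Eif5a (0.03, adjusted p = 0.517) were not.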
